A study of Homo sapiens with 2 samples.

Results

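Histone genes were examined in HL60 cells, an established human promyelocytic leukaemia line, with and without eltrombopag, an iron-binding drug that activates the thrombopoietin receptor. The members were all genes with a probe set naming them alone whose symbol begins with H1-, H2AC, H2BC, H3C, H4C, H2AZ, H2AX, H2AJ, H3-3 or MACROH2A. This rule found 57 of 19775 genes on the array, represented by 81 of 41091 probe sets that name 1 gene. One sample was left untreated and the other received eltrombopag at 3 µg/ml for 36 h; both were grown in RPMI with 10% serum. With 1 array per group, every difference is a difference between 2 arrays, no p-value or error between samples can be given, and the drug's action and any other difference between the cultures cannot be told apart. No vehicle and no culture time were given for the untreated cells.

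Histones are the proteins around which DNA is wound: H2A, H2B, H3 and H4 form the core of the nucleosome and H1 binds the linker DNA. Most of their genes lie in dense clusters and are transcribed in S phase, when new DNA must be packaged; their messages normally end in a stem-loop bound by SLBP instead of a poly(A) tail. Variant histones such as H2A.Z, H3.3 and macroH2A are encoded by separate genes mostly with polyadenylated messages, and are made outside S phase as well. A few clustered genes can also give polyadenylated messages, chiefly in cells that have stopped dividing. The standard Affymetrix labelling reaction starts from an oligo(dT) primer, which anneals to poly(A) tails; how much of each histone message entered the labelled cRNA was not tested.

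Clustered histone genes were found both higher and lower with eltrombopag, and the measured variant genes only lower. Of the 15 clustered genes with a signal above the floor described below, 4 had at least 2-fold higher signal with eltrombopag, where 0.65% of all such genes did. They were H2BC21 (5.96-fold), H2AC6 (3.9-fold), H2BC12 (2.92-fold) and H2BC5 (3.12-fold in 1 probe set and 1.08-fold in its other). The variant genes H2AZ1, H2AZ2, H2AX, H1-10, H3-3A and MACROH2A1 all had lower signal, by less than 2-fold in the probe set used for each gene, and 1 clustered gene, H4C11, was 2.07-fold lower, where 2.27% of all genes passed 2-fold downwards. The list was drawn up with these values known, so the counts describe it and support nothing further.

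The promoters of the 4 higher genes, of the H2A and H2B families, and of H4C11, lower on the deposited scale, are shown. Differences in their short elements cannot be told apart from differences between families. Each is the run of 250 bases before the annotated start, from RefSeq on assembly GRCh38.p14, written 5′ to 3′ on the gene's strand. Capitals mark the CCAAT box, the octamer ATTTGCAT known from H2B promoters, and the TATA element TATAAA, each searched on both strands.
H2BC21, chr1:149886683-149886932, minus strand: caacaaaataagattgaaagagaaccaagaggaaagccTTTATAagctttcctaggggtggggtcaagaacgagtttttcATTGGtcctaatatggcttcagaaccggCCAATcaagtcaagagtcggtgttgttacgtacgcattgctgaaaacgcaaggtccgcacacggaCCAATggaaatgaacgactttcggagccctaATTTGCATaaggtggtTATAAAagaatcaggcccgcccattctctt
H2BC12, chr6:27146859-27147108, minus strand: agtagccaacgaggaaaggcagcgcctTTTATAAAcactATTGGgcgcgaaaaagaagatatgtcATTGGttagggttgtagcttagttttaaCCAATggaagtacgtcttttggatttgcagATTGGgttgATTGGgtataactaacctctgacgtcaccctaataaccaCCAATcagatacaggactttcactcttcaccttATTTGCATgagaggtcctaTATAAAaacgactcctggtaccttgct
H2BC5, chr6:26157871-26158120, plus strand: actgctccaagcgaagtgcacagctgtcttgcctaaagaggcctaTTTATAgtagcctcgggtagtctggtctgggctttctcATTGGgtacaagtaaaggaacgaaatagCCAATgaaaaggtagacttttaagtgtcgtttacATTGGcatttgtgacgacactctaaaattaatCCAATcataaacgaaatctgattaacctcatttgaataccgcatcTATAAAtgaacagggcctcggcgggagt
H2AC6, chr6:26123922-26124171, plus strand: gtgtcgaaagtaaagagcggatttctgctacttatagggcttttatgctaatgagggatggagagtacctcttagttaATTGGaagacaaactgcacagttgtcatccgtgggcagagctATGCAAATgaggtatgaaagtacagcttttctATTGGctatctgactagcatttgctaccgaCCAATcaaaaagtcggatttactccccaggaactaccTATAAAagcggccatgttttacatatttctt
H4C11, chr6:27823842-27824091, plus strand: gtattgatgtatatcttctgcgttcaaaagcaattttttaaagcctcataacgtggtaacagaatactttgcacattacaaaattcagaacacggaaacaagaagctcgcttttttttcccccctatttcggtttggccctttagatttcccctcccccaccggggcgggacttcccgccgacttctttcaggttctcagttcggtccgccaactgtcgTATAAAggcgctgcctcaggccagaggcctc

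TATAAA was found in all 4 promoters of the higher genes, with the copy nearest the start beginning 27 to 31 bases before it. CCAAT occurred 3 times in H2BC21, 6 times in H2BC12, 4 times in H2BC5 and 3 times in H2AC6. The octamer ATTTGCAT was present once in H2BC21, H2BC12 and H2AC6, 46, 46 and 130 bases before the start, and was not found in the H2BC5 window. H4C11 held 1 TATAAA and neither of the other motifs. The same held for H4C4, whose log2 ratio was 0.44, and H4C5 held none of the motifs. In H2BC12, 1 pair of matches overlapped, where TATAAA was read on both strands. Among 27305 promoters of the same length, 9020 held CCAAT, while 11.2% held TATAAA and 1.67% ATTTGCAT. Of 13 clustered H2B genes matched to the promoter table, 13 held CCAAT, 11 TATAAA and 10 ATTTGCAT. Most of these 13 genes lay below the floor and have no ratio. Of the measured genes not 2-fold higher, H2AC14 and H2BC6 held each of the motifs, at log2 ratios of 0.04 and 0.28. The rest of those matched to the promoter table lacked ATTTGCAT. Whether the motifs go with the changes was not tested. Of 10 variant genes, 8 held CCAAT, 3 TATAAA and 0 ATTTGCAT. A match is a description of letters, not of binding.

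Each value is a MAS5 signal, which gives the brightness of a probe set on a linear scale, and each ratio sets eltrombopag over untreated. A floor at the 60th percentile of both arrays, a signal of 56.91, was applied before log2 was taken, and a gene is called measured when its probe set lies above it in at least 1 sample. Of the 57 histone genes, 21 were measured and 17 lay above the floor in both samples. The measured genes comprised 15 of 43 clustered and 6 of 10 variant genes; 4 further symbols are pseudogenes or an antisense RNA (H1-9P, H2AC5P, H4C10P and H1-10-AS1), and none of these was measured. The clustered class follows the symbols and so takes in H2BC12L and H2AC25, which lie outside the main cluster. H2BC21 lies on chromosome 1, while the other genes at least 2-fold higher lie on chromosome 6. Among 10314 measured genes of the array, 0.65% passed 2-fold upwards and 2.27% downwards. The corresponding histone counts were 4 and 1 of 21, and since the contrast was known when the list was made, nothing is read from them. Above the floor in both samples, the histone counts were 4 and 1 of 17, beside 0.625% and 2.21% of all genes. At 1.5-fold they were 4 and 5 of 21, beside 3.49% and 11.8%, and at 3-fold 3 and 0, beside 0.175% and 0.184%. The median log2 ratio was -0.12 over all measured genes, and 63.4% of these had a ratio below 0. After the 3 other scalings the median lay between -0.03 and -0.01. Higher genes made up 22.3% of all 2-fold calls on the deposited scale and 38.6% to 44.8% after the 3 other scalings.

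**Figure D1:**
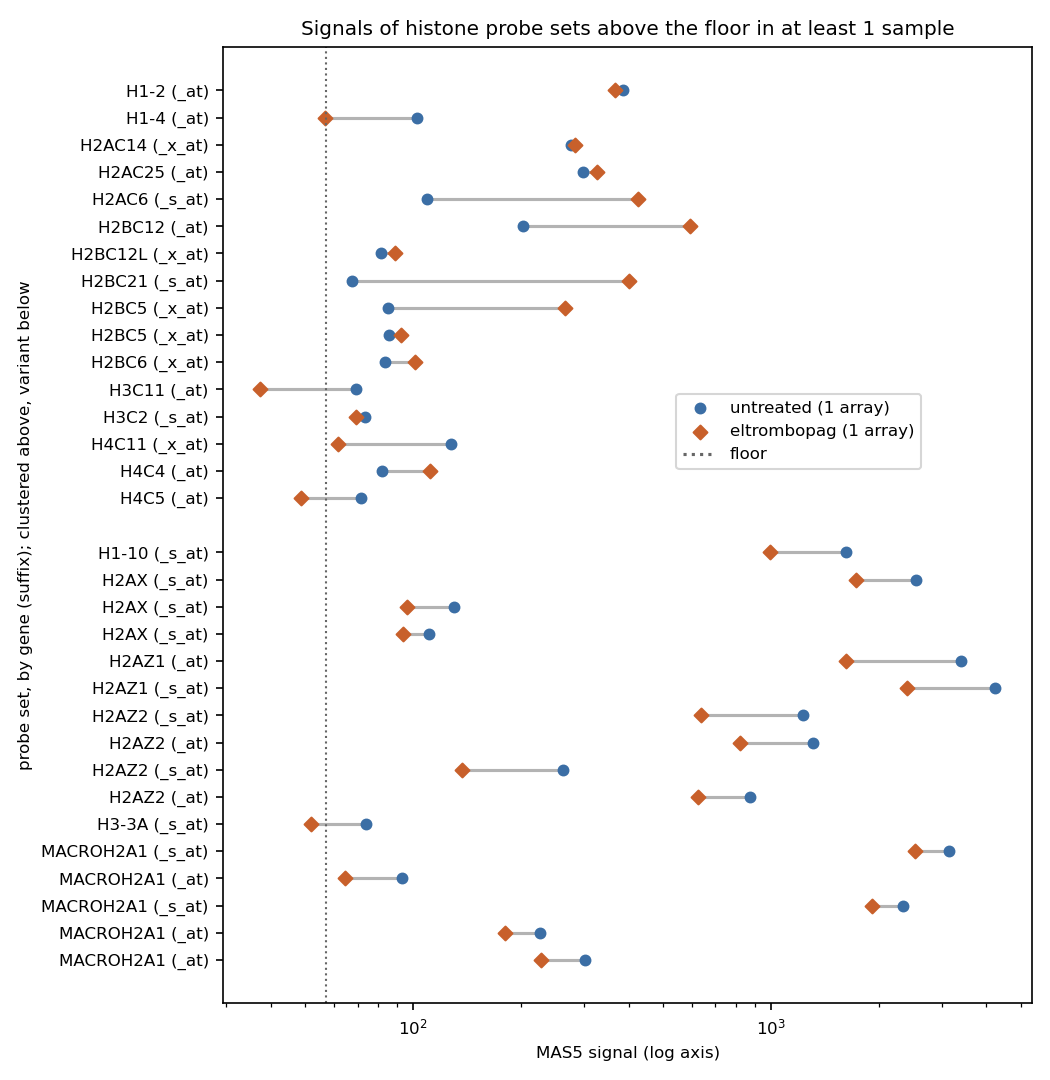
MAS5 signal on a log axis (x) of the 32 measured histone probe sets (y, gene and probe set suffix) in the untreated array (circles) and the eltrombopag array (diamonds); the dotted line is the floor of 56.91. The long bars to the right belong to H2AC6, H2BC12, H2BC21 and 1 of the H2BC5 probe sets, and all 16 variant probe sets have the eltrombopag value to the left.

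H2B genes held 3 of the 4 increases. H2BC21, a clustered gene known to give a polyadenylated message in differentiated cells, had a signal of 67.46 untreated and 401.87 with eltrombopag, a log2 ratio of 2.57. Its untreated value lay close to the floor, and with a floor at the 75th percentile the log2 ratio was at least 1.24. H2BC12 had 203.47 and 593.9, a log2 ratio of 1.55, and was the 1 higher gene read by a probe set of the plain _at type, which is designed to be unique. H2BC5 was read by a pair of probe sets that disagreed. The one used for the gene gave 85.05 and 265.25, a log2 ratio of 1.64, while the other gave 85.58 and 92.54, a log2 ratio of 0.11. Both carry the suffix _x_at, which marks probes that may also bind other transcripts, and the mean over them was 0.88, below 2-fold. The H2BC5 increase therefore rests on 1 probe set. The remaining measured H2B genes differed little: H2BC6 had 83.33 and 101.43, and H2BC12L had 81.39 and 88.92. H2BC4 was below the floor in both samples, at 15.23 and 48.05, and gets no fold change.

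Among H2A genes, H2AC6 stood out, with 109.35 untreated and 425.94 with eltrombopag, a log2 ratio of 1.96. With a floor at the 75th percentile the H2AC6 ratio was at least 1.32. Its probe set has the suffix _s_at, which marks probes shared by several transcripts. H2AC6 and H2BC4 are divergent neighbours whose annotated starts lie 246 bases apart, so the H2AC6 promoter printed above spans the stretch between both starts. The same holds for H2BC21, whose start lies 236 bases from that of H2AC20, a gene not analysed here. H2AC25, in a small separate group of histone genes, had 297.6 and 327.23, and H2AC14 had 275.49 and 283.56. These 2 genes had log2 ratios of 0.14 and 0.04, smaller than 0.26, the SD of a single probe set's log2 ratio on these arrays. That SD is the SD of the difference between a gene's 2 brightest probe sets over the square root of 2. It covers 4374 genes above the floor in both samples and is not an error between replicates.

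H1, H3 and H4 genes of the clusters did not share the increase. H1-2, a linker histone that can also be polyadenylated, had 386.16 and 367.35, a log2 ratio of -0.07 that became 0.03 to 0.05 after the other scalings. H1-4, another linker histone, had 102.65 and 56.83, a signal at least 1.8-fold lower because the second value lay at the floor. H3C2 had 73.56 and 69.17, with a log2 ratio of -0.09 that ran from -0.02 to 0.05 after the other scalings. H3C11, with 69.06 and 37.36, and H4C5, with 71.36 and 48.52, crossed the floor and were at least 1.21-fold and 1.25-fold lower. The 2 other H4 genes went opposite ways: H4C11 had 127.56 and 61.77, a log2 ratio of -1.05, and H4C4 had 82.01 and 111.37, a log2 ratio of 0.44. The H4C11 value, from an _x_at probe set, was -0.94, -0.91 and -0.93 after median centring, quantile normalization and lowess, below 2-fold each time.

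Known polyadenylated forms were set against the other clustered genes. From background knowledge, and with earlier results known, 6 clustered genes were listed as having polyadenylated messages: H1-2, H2AC6, H2BC4, H2BC5, H2BC12 and H2BC21. Of these, 5 were measured, 4 were at least 2-fold higher, beside 0.65% of all measured genes, and the median log2 ratio was 1.64. Of the 37 other clustered genes, 10 were measured, 0 passed 2-fold upwards and 1 downwards; their median was -0.02, which turned to between 0.07 and 0.11 after the 3 other scalings. The exception in the first group was H1-2. Leaving out probe sets with the suffixes _s_at and _x_at left 2 genes of this group, H1-2 and H2BC12, of which H2BC12 alone was at least 2-fold higher.

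**Figure D2:**
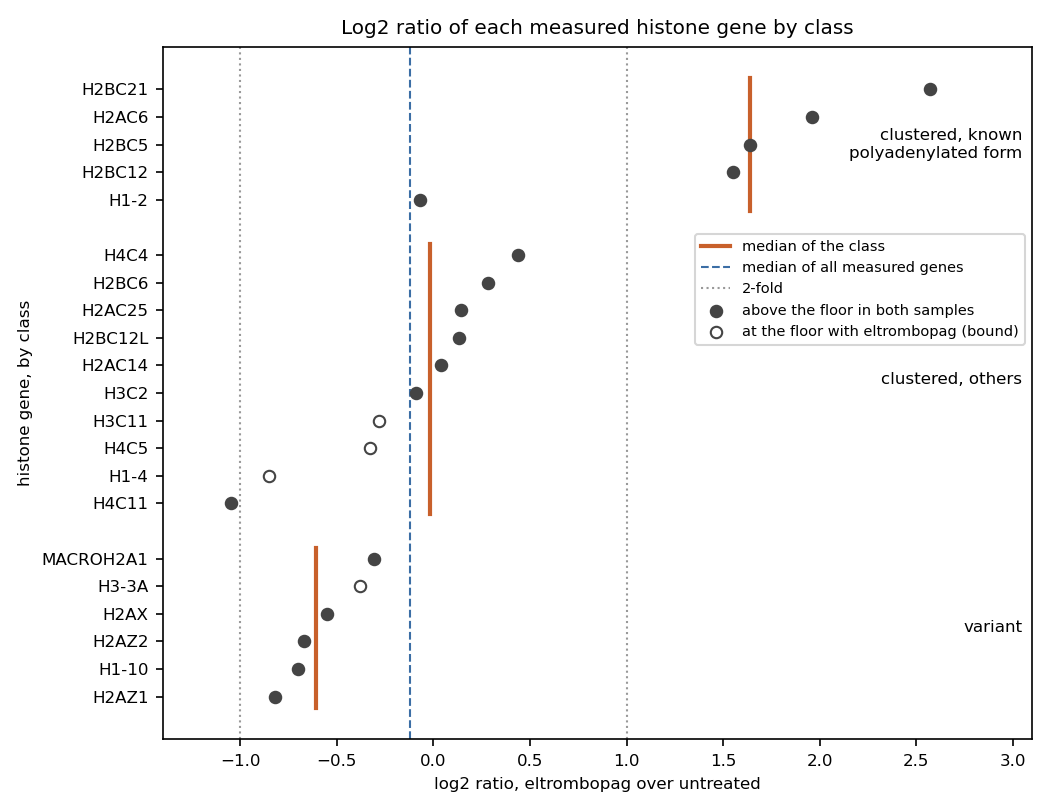
Log2 ratio of eltrombopag over untreated (x) of the 21 measured histone genes (y) in 3 classes, with the median of each class (solid bars), the median of all measured genes (dashed) and the 2-fold limits (dotted); open circles are bounds at the floor. The class medians are 1.64, -0.02 and -0.61 against -0.12 for all measured genes.

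All of the higher genes but H2AC6 also had long gene models. The symbol rule did not use length, but the long genes H2BC4, H2BC5, H2BC12 and H2BC21 were all listed above as having polyadenylated messages. The lengths are therefore not separate from that list. In the RefSeq table H2BC5 spans 13229 bases, H2BC12 8566 and H2BC21 2224, while the median over the 38 clustered genes of up to 1000 bases was 487.0. A limit of 1000 bases, set after the values were seen, put 5 clustered genes on the long side. Of these, 3 were measured and all 3 were at least 2-fold higher, beside 0.65% of all measured genes. Because the limit was set with these calls known, nothing is read from the split. The other 2 long genes were H2BC4, at 10757 bases, and H3C6, at 3296 bases. H3C6 lay below the floor with 30.53 untreated and 21.11 with eltrombopag, as did H2BC4 at the values given above. Of 12 measured short genes, 1 was at least 2-fold higher, H2AC6, whose model spans 519 bases. H4C11 spans 389 bases. A long model shows that a longer span has been annotated, not that such a form was made in these cells. At which end the models extend was not examined.

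**Figure D3:**
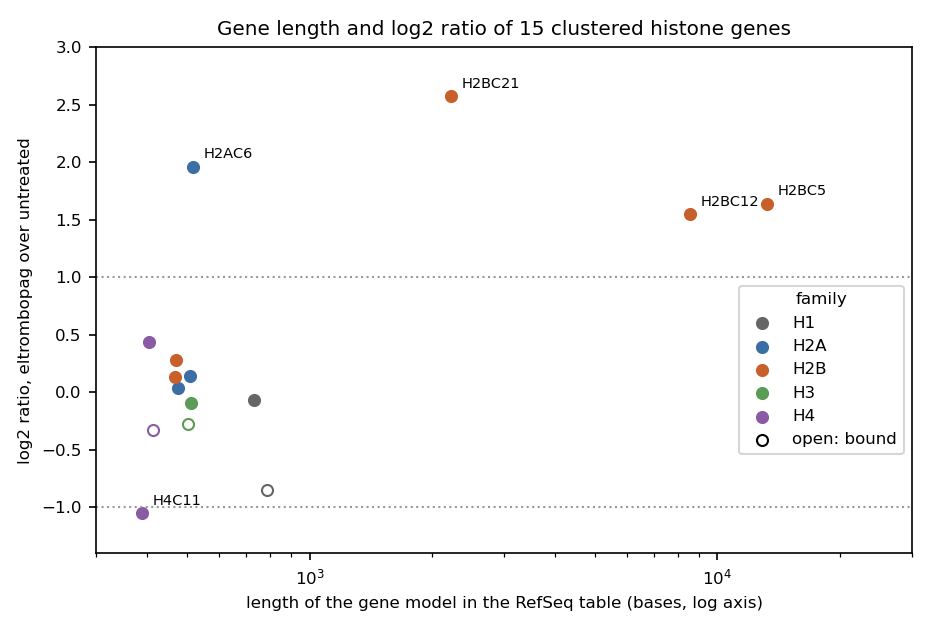
Length of the RefSeq gene model in bases on a log axis (x) against the log2 ratio of eltrombopag over untreated (y) for the 15 measured clustered histone genes, coloured by family; open circles are bounds and dotted lines the 2-fold limits. The 3 genes longer than 1000 bases, H2BC21, H2BC12 and H2BC5, lie above the upper limit, as does H2AC6 at 519 bases.

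Variant histones were lower throughout. H2AZ1 encodes H2A.Z, the variant placed at promoters and around the starts of genes. Its probe sets gave 4236.38 and 2404.8, a log2 ratio of -0.82, and 3395.95 and 1618.82, a log2 ratio of -1.07. The second value passed 2-fold on the deposited scale and lay between -0.96 and -0.99 after the other scalings. H2AZ2, which encodes the closely related second H2A.Z protein, had 1310.4 and 821.25 in the probe set used, a log2 ratio of -0.67, and its 3 other probe sets gave -0.95, -0.93 and -0.48. All 6 probe sets of the H2A.Z genes were thus lower with eltrombopag.

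H2AX, the variant phosphorylated at DNA breaks, had 2538.14 untreated and 1732.7 with eltrombopag, a log2 ratio of -0.55. Its other measured probe sets gave -0.44 and -0.24. H1-10, a replication-independent linker histone, had 1619.87 and 995.79, a log2 ratio of -0.7. MACROH2A1, a large H2A variant of repressed chromatin, had 3141.39 and 2529.18, a log2 ratio of -0.31, and its 4 other measured probe sets lay between -0.29 and -0.53. H3-3A, which encodes the replacement histone H3.3, had 73.91 and 51.89 in its single own probe set, a signal at least 1.3-fold lower. The 6 variant genes had a median of -0.61 and 6 of 6 lay below 0, beside 63.4% of all measured genes; this held after each of the 3 other scalings, with medians of -0.53 to -0.51. The other 4 variant genes, H1-7, H1-8, H2AJ and MACROH2A2, were below the floor in both samples. By single probe sets, 0 of 16 variant probe sets were higher.

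Probe sets joined to several histone genes were left unnamed, and their values are given by family. The genes they join may include those named above, so these values are not separate from theirs. There were 20 such probe sets, of which 11 were measured. Past 2-fold were 1 upwards and 1 downwards, beside 0.655% and 2.3% of measured probe sets naming 1 gene. The higher one, an H2A probe set joining 6 genes, had 47.21 untreated and 190.86 with eltrombopag, at least 3.35-fold higher. The lower one, an H4 probe set joining 14 genes, had 4159.09 and 1803.2, a log2 ratio of -1.21. The H4 value stayed past 2-fold after the other scalings, at -1.1 to -1.12. Another H2A probe set, joining 2 genes, had 691.46 and 439.18, a log2 ratio of -0.65, so H2A signals went both ways. An H2B probe set joining 2 genes had 59.34 and 110.31, a log2 ratio of 0.89, and a probe set joining 11 H2A and H3 genes had 100.58 and 196.41, a log2 ratio of 0.97; after the other scalings the first ran from 0.99 to 1.03 and the second from 1.07 to 1.12. An H3 probe set joining 10 genes had 12.1 and 71.95, which after the floor is only at least 1.26-fold. A further 8 probe sets join the H3.3 genes with a pseudogene or a microRNA and were looked at after values had been seen. They lay between 574.91 and 8102.93, and 8 of 8 were lower, beside 63.4% of all measured genes. Their log2 ratios ran from -0.71 to -0.17, with a median of -0.37.

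Suffixes matter for this family because its members are alike in sequence. Of the 32 measured histone probe sets, 40.6% carried _s_at and 18.8% _x_at, against 31.1% and 8.53% of all measured probe sets naming 1 gene. At least 2-fold higher were 1 of 13 _at, 2 of 13 _s_at and 1 of 6 _x_at histone probe sets, where 0.655% of all 18634 measured probe sets were. At least 2-fold lower were 1 _at, 0 _s_at and 1 _x_at histone probe sets, against 2.3% of all.

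Histone genes below the floor make up most of the list. These were 28 clustered genes, with signals between 1.0 and 50.68, 4 variant genes between 1.09 and 30.77, and the 4 noncoding symbols between 5.45 and 17.48. Values at the floor have no order, so no direction is given for them. Of the histones outside the symbol rule, CENPA, the centromeric H3, had 144.09 and 99.78, a log2 ratio of -0.53, and H3-4 had 57.75 and 62.11, close to the floor.

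Genes that process histone messages had a median close to that of all genes. Their median was -0.16 over 21 measured genes, beside -0.12 for all genes, and -0.06 to -0.03 after the other scalings, beside -0.03 to -0.01. On the deposited scale 18 of 21 lay below 0, beside 63.4% of all genes, and 14 or 15 after the other scalings, beside 51.4% to 52.9%. Past 2-fold were 0 upwards and 1 downwards, beside 0.65% and 2.27%. The lower gene was SLBP, the protein that binds the stem-loop, with 656.33 untreated and 303.22 with eltrombopag, a log2 ratio of -1.11; after quantile normalization it, like every gene of the list, was below 2-fold. NCBP1, a cap-binding subunit, had -0.8, SNRPB, a protein shared by the U7 and spliceosomal particles, -0.72, and CASP8AP2, a factor of histone locus bodies, -0.67. The other measured probe set of each gave -0.18 for NCBP1, -0.83 for SNRPB and -0.16 for CASP8AP2. NPAT, the activator of clustered histone genes, was not among the 4 largest changes and is named after its values were seen: 278.48 and 265.94, a log2 ratio of -0.07.

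Histone chaperones, which carry new histones to DNA, gave a median of -0.26 over 30 measured genes, beside -0.12 for all genes. On the deposited scale 23 of the 30 lay below 0, beside 63.4% of all genes, and 18 after each other scaling, beside 51.4% to 52.9%. Past 2-fold were 2, both lower under every scaling, where 2.27% of all genes were lower on the deposited scale and 1.29% to 1.5% after the others: ASF1B, the H3-H4 chaperone of dividing cells, with 743.31 and 326.04, a log2 ratio of -1.19, and CHAF1B, a subunit of the chromatin assembly factor CAF-1 that works at replication forks, with 204.78 and 91.62, a log2 ratio of -1.16. HAT1, which acetylates new H4, had 760.06 and 387.13, a log2 ratio of -0.97, and RBBP7, its partner, -0.79. HIRA, which deposits H3.3 outside S phase, is named after its values were seen and had -0.35.

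S-phase genes had a lower median than the processing and chaperone lists under every scaling. Of 42 measured replication and S-phase genes, 8 passed 2-fold downwards and 0 upwards on the deposited scale, beside 2.27% and 0.65% of all genes. After the other scalings 5 or 6 did so downwards, beside 1.29% to 1.5%. On the deposited scale 37 lay below 0, beside 63.4% of all genes, and the median was -0.6, close to that of the variant histones at -0.61. UHRF1, which couples DNA methylation to replication, had a log2 ratio of -1.35, CCNE2, a cyclin of S-phase entry, -1.28, and PCNA, the sliding clamp, -1.21. GINS2, a subunit of the replicative helicase, was at least 2.43-fold lower. The part of cell cycle differences between the cultures in the histone values was not tested.

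**Figure D4:**
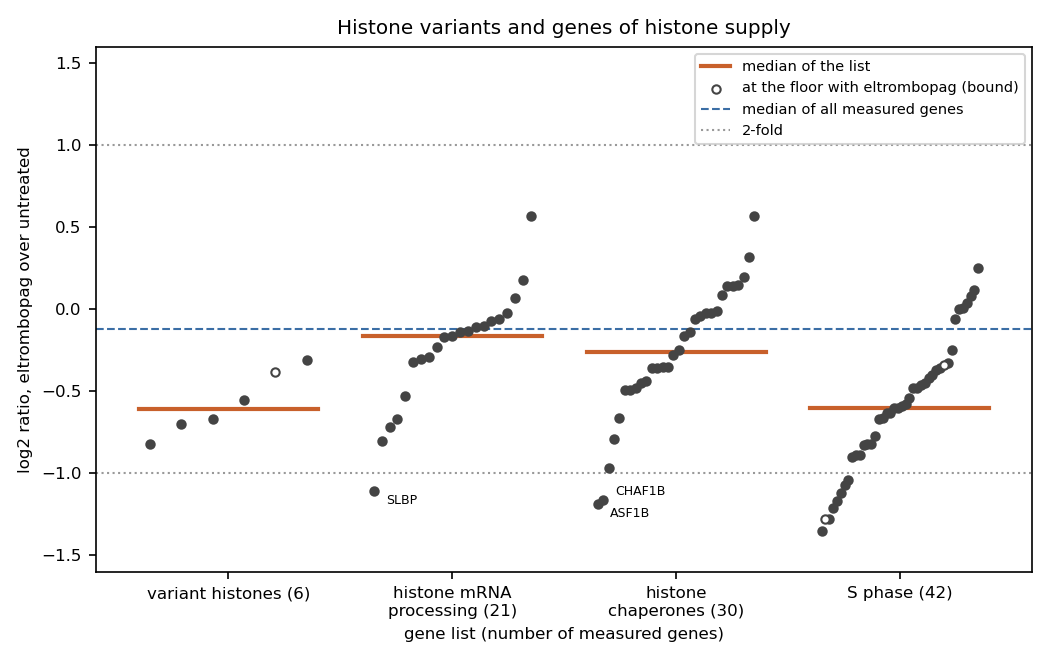
Log2 ratio of eltrombopag over untreated (y) of each measured gene in 4 lists (x): 6 variant histones, 21 histone mRNA processing genes, 30 histone chaperones and 42 S-phase genes; solid bars are list medians, the dashed line the median of all measured genes, dotted lines 2-fold and open circles bounds. The medians are -0.61, -0.16, -0.26 and -0.6, and no gene reaches the upper 2-fold line.

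The labelled cell type was checked against markers. Of 11 promyelocyte genes on the array, 9 were measured, with MPO, myeloperoxidase, at 1556.07 and 1467.09. AZU1 lay close to the floor, at 67.25 and 80.78, and ELANE and LYZ lay below it in both samples. The labels also name a haematopoietic stem cell type; 3 of 10 such markers were measured. Of these, GATA2 had 2589.02 and 2130.54, while CD34 lay below the floor at 30.33 and 34.67. Plasma cell markers were present: 14 of 16 were measured, with FCRL5 and CD27 below the floor in both samples. JCHAIN had a signal of 7971.56 untreated and 4866.45 with eltrombopag. At least 2-fold lower were 7 of the 14, and 0 were higher, beside 2.27% and 0.65% of all genes. Below 0 were 13, among them IRF4 at a log2 ratio of -2.37, and 1 lay above 0. The summed signal of the list was 20122 untreated and 11734 with eltrombopag. Between 1 and 3 genes were measured in each of the lists for B cells, T and NK cells, erythroid and megakaryocyte cells, and fibroblasts and epithelium. In bulk RNA, fewer cells of a type and less RNA per cell cannot be told apart. The part of the plasma cell signal in the histone values was not tested.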

How the data were processed

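RNA from 1 untreated and 1 eltrombopag culture was labelled from about 5 µg of total RNA and hybridised to 1 Affymetrix array each, per the labels' protocols. The deposited values are 1 linear signal intensity per probe set, made with MAS5 according to the submitters' processing notes. Neither the software version nor the target used for scaling is given in the sources used here. The number of arrays limits the precision. The platform annotation gave 1 gene for 41091 of 54613 probe sets, several for 1801 and no entry for 11721; RefSeq identifiers (GRCh38.p14), found for 41037, changed 0 symbols. The array's build is unknown, so the only coordinates given are those of the RefSeq promoters, of which 50 matched a member.

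Values were used as deposited. Signals below the 60th percentile (56.91) were raised to it, and a gene took its probe set of highest mean log2 signal. Genes were counted at 2-fold; no test was possible. Every measured histone gene is named, with up to 4 genes per other list. Members and lists were chosen with earlier results of these data known. The processing was run on simulated arrays with known changes put only into genes of higher mean signal than the histone genes at least 2-fold higher. It was checked by the median ratio recovered, so it does not cover counts near the floor. Python 3.11.15, numpy 2.4.6, pandas 2.3.3 and statsmodels 0.14.6 were used. Alternatives were 3 scalings, 3 floors, averaging a gene's probe sets, leaving out _x_at and _s_at, genes above the floor in both samples and thresholds of 1.5-fold and 3-fold; the scalings of single probe sets, joined probe sets and families were added after seeing the data.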

Additional observations from a re-analysis of the deposited data

How the results depend on the processing

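The count of 4 histone genes at least 2-fold higher was 3 to 6 under 10 alternatives and 1 (H2BC12) without _x_at and _s_at probe sets, where 10 histone genes were measured and the 1 lower gene was H2AZ1, at -1.07. It was 3 with the mean over probe sets and with the floor at the 75th percentile (a signal of 170.5); the gene lost was H2BC5 in both. The count of 1 lower gene became 0 after median centring, quantile normalization and lowess, with the higher floor and at 3-fold. It became 5 at 1.5-fold, beside 11.8% of all genes, and 5 without a floor. Without a floor all 57 histone genes entered, 6 of them higher, beside 1194 higher and 1324 lower (6.7%) of all 19775 genes. For probe sets, the higher count of 4 became 9 without a floor, and the lower count of 2 became 0 after each of the 3 scalings, 1 with the higher floor and 8 without one. Without a floor 81 histone probe sets entered, and no share over all probe sets is given there. The clustered median of 0.13 was 0.64 with the higher floor and reversed to -0.07 without _x_at and _s_at. The median of the polyadenylated group, 1.64, was 1.24 and 0.74 in those settings. That of the other clustered genes, -0.02, reversed to 0.08 after median centring, 0.11 after quantile normalization, 0.07 after lowess, 0.12 with the floor at the 50th percentile, 0.09 at the 75th, 0.13 without a floor and 0.13 for genes above the floor in both samples. With the higher floor the untreated signals of H2BC21, H2AC6 and H2BC5 were raised to it. Their ratios there are lower bounds, as is the median of 1.24. Without _x_at and _s_at the 0.74 is the median of H1-2 and H2BC12 alone. What lies behind the other changes was not tested. The median of the variant genes stayed between -0.67 and -0.51, and that of the S-phase genes between -0.64 and -0.49. Of the single histone genes' log2 ratios, 159 recomputed values moved by less than 0.26, the single probe set SD given above, and 6 by more. Genes not measured under a setting are not counted, among them H2BC21, H2AC6 and H2BC5 without _x_at and _s_at. With the floor at the 75th percentile H2BC21 was at least 1.24, H2AC6 at least 1.32 and H2BC5 at least 0.64. H2BC5 was 0.88 as a mean over probe sets, and H3C11 was -0.89 without a floor, as it was at the 50th percentile. No paired analysis was possible because each group holds 1 sample. Low signals near the floor limit most clustered genes.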
